A study of Mus musculus with 2 samples.

Results

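The 9 genes described here code for enzymes and carriers that make glucose from smaller molecules or bring fructose into metabolism: Fbp1, Fbp2, G6pc, Pck1, Slc37a4, Khk, Dak (now Tkfc), Pcx and Gpd1. A probe with no gene name in the array files, A_51_P250217, was taken with them because of where it lies. The genes and the probe were selected on the ratio between diets in these same arrays, so that ratio is given below as a description and is no evidence for the choice. Probes were found by the gene name in the array files or by the current symbol of their accession. This gave 11 of 41174 probes, of which 10 stand for 8 of the 9 genes and 1 is the unnamed probe. No probe in the files used here carries the name Pck1, so Pck1 has no value of its own.

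The study set a food antigen-free diet (FAF), an amino acid-containing diet on which mice were kept for up to 5 generations, beside conventional chow (Conv), both in C57BL/6 mice aged 6 to 8 weeks. Total RNA of the small intestine of each diet was hybridised to 2 dual-colour Agilent arrays of the whole mouse genome. In a dual-colour array the RNA of both diets binds to the same spots, each marked with its own dye, Cy5 or Cy3, and here the dyes were exchanged on the other array. Both arrays carry the same pair of RNA codes, so there is 1 RNA sample per diet, measured with 2 arrays, and no spread between mice and no test between diets can be had. Per the labels, mice were SPF (specific pathogen-free) and GF (germ-free), and which of them gave this RNA, how many mice it holds, the segment of intestine and the hour of collection are not given in the sources used here. Nor do these sources give the sugar, starch and fat of either diet.

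Gluconeogenesis runs much of glycolysis backwards and uses its own enzymes where glycolysis cannot be reversed. Pyruvate carboxylase (Pcx) makes oxaloacetate from pyruvate, and phosphoenolpyruvate carboxykinase (Pck1) turns oxaloacetate into phosphoenolpyruvate. Fructose bisphosphatase (Fbp1 and Fbp2) takes a phosphate from fructose bisphosphate, and the catalytic subunit of glucose-6-phosphatase (G6pc) frees glucose after Slc37a4 has carried glucose 6-phosphate into the endoplasmic reticulum. Fructose enters by another door: ketohexokinase (Khk) phosphorylates it, the product is cleaved, and triokinase (Dak) phosphorylates the glyceraldehyde that results. Glycerol 3-phosphate dehydrogenase (Gpd1) links the triose phosphates to glycerol 3-phosphate and so to triglyceride. Liver and kidney are the classic sites of glucose production, and the small intestine also carries these enzymes, with fructose handled by the enterocytes that line the villi.

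The probes are 60 bases long, and their own sequences show which stretch of RNA was read. The probes for Fbp1, A_51_P250217, G6pc and Slc37a4 had the largest ratios between diets among the 11, and the Fbp2 probe is set beside that of Fbp1. Each is written 5′ to 3′ in lower case, with a polyadenylation signal, AATAAA, in capitals where the printed stretch holds one. Except for Fbp2, whose match is split over 4516 bases of the genome and which is printed whole, a stretch of 30 bases is given.
Fbp1: acagcttaatgctttgcaatgcccaaggtc
Fbp2: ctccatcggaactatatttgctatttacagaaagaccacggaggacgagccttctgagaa
A_51_P250217: attatttttatacaccgcccttacctttct
G6pc: cagaaatatgactcctttccctagcccaag
Slc37a4: gggcaaaccgacttgtatagatcgAATAAA
In mouse build mm9, which the array files use, the Fbp1 probe lies at chr13:62966175-62966234 on the minus strand and the Fbp2 probe at chr13:62950852-62955367 on the same strand. These neighbouring genes have exchanged names in the past, so they were told apart by accession, NM_019395 for Fbp1 and NM_007994 for Fbp2. The 2 probes lie 10.8 kb apart and share no run of over 6 bases. The G6pc probe lies at chr11:101238947-101239006 and the Slc37a4 probe at chr9:44210987-44211045, both on the plus strand. The signal AATAAA, which marks the end of a messenger RNA, occurs in 3 of the 11 probes (Slc37a4, Pcx and 1 of Khk) and in 4.78% of all 41174 probes. Between any pair of the 11 probes the longest shared run is 8 bases.

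A_51_P250217 lies at chr2:172984665-172984728 on the plus strand, a span of 64 bases for a probe of 60. The nearest probes with a gene symbol in the array files are those of Ctcflos, 27.1 kb before it, and Zbp1, 47.4 kb after it, followed by Pmepa1 at 65.7 kb. In the RefSeq gene order of assembly GRCm38.p6, Pck1 lies after Ctcflos and before Zbp1 and Pmepa1, and is the only protein-coding gene between Ctcfl and Zbp1. The noncoding genes Gm36691 and Gm36749 also lie between Ctcflos and Pck1 in that order. The RefSeq promoter of Pck1 is on the plus strand too. The probe therefore lies between the same neighbours as Pck1, and as these noncoding genes, and on the strand of Pck1. The annotation of mm9 was not used here and the files pair the probe with no gene, so its values are given under its own name and not as values of Pck1.

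All values below come from 2 scales. A normalised intensity is the brightness of a probe in a diet's dye after background correction and scaling of both arrays, in arbitrary units. It is not used to rank genes against each other. A summed intensity adds the probes of a list, so the brightest probes weigh most in it. A log2 ratio is FAF over Conv on the same spot, so that 1 means 2-fold higher in FAF, and the ± after it is the distance of either array from the mean of both. To pass, a gene needed 2-fold or more on average and 1.5-fold or more on each array, both in the same direction. Of 17162 genes measured, 263 passed as higher in FAF, which is 1.53%, and 151 passed as lower, which is 0.88%. Among the 8 named genes and the unnamed probe, 4 passed as higher and 0 as lower, with no test behind either count. The 4 are Fbp1, A_51_P250217, G6pc and Slc37a4, and this is the contrast on which they were selected. All 11 probes were well above background in both diets on both arrays, none was saturated, and all 11 had a ratio above 0 on each array. The median log2 ratio over the 9 was 0.85, beside -0.00 over all genes measured. Of all genes measured, 49.8% had a mean ratio above 0 and 50.2% below 0. The share of all genes above 0 on each array was not counted, nor was the share without overlap between the values of the diets. The values of a diet come from the same RNA sample, so a lack of overlap does not measure spread between mice.

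**Figure D1:**
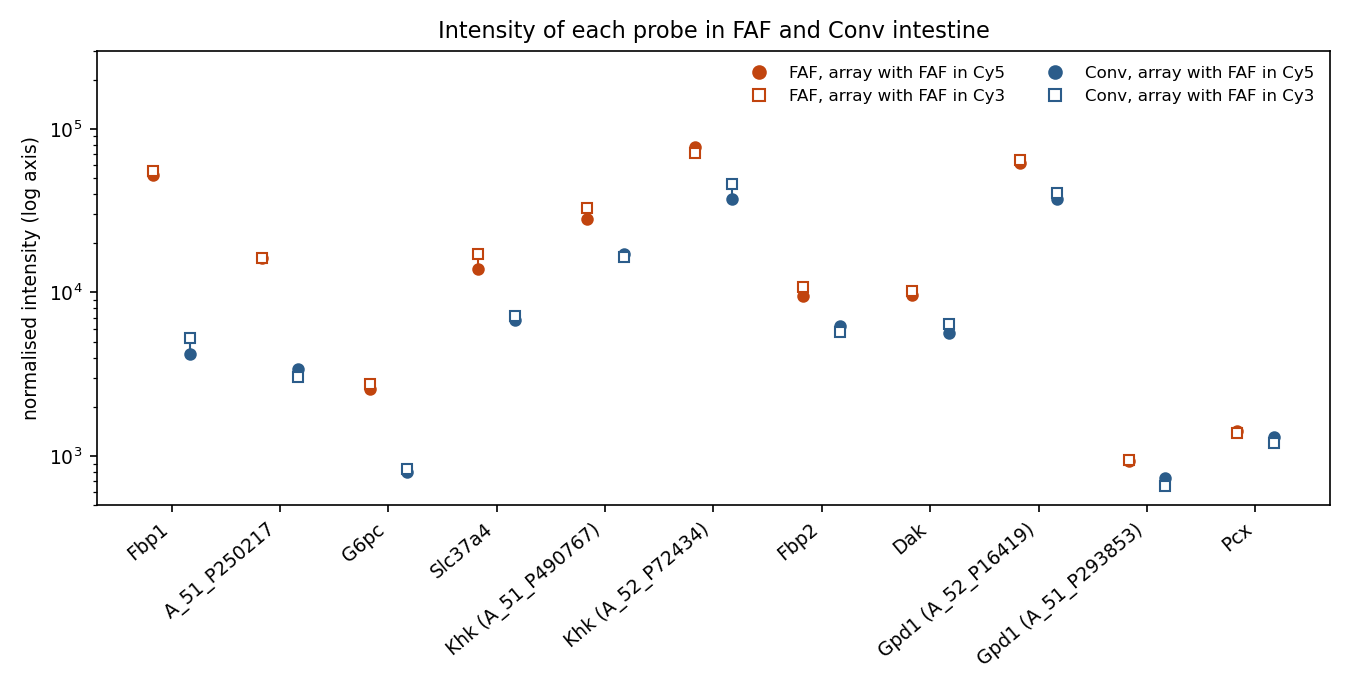
Normalised intensity (log axis, arbitrary units) of each of the 11 probes in FAF (orange) and Conv (blue) intestine; circles are the array with FAF in Cy5, squares the array with FAF in Cy3, and a line joins the arrays. Both FAF values lie above both Conv values for every probe, by the widest margin for Fbp1 and the narrowest for Pcx. The values of a diet come from the same RNA sample, so this does not measure spread between mice. The share of all genes without such overlap was not counted. The genes and the unnamed probe were selected on this contrast.

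Among the named genes, the largest ratios, on which they were selected, were those of Fbp1, G6pc and Slc37a4. The Fbp1 probe had normalised intensities of 52131 and 55440 in FAF intestine, on the arrays with FAF in Cy5 and in Cy3, against 4226 and 5254 in Conv intestine on the same arrays. Its log2 ratios were 3.62 and 3.40, with a mean of 3.51 ± 0.11, or 11.4-fold. The diets were far apart on both arrays, and Fbp1 held rank 2 of 17162 genes by ratio.

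G6pc, the catalytic subunit that sits in the membrane of the endoplasmic reticulum, had intensities of 2562 and 2752 in FAF intestine against 799 and 831 in Conv intestine. Both FAF values lay above both Conv values, and the log2 ratio was 1.70 ± 0.02, or 3.26-fold. Slc37a4, which supplies the substrate to that subunit, had 13976 and 17069 in FAF against 6787 and 7154 in Conv. Both FAF values again lay above both Conv values, and the log2 ratio was 1.15 ± 0.11, or 2.22-fold. Among the named genes Slc37a4 was the last inside the 2-fold limit, and Khk, at 1.80-fold, the first outside it.

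The unnamed probe A_51_P250217 had intensities of 16232 and 16204 in FAF intestine against 3408 and 3056 in Conv intestine. The FAF values were nearly equal on the arrays and well apart from the Conv values. The log2 ratios were 2.25 and 2.41, with a mean of 2.33 ± 0.08, or 5.03-fold, and rank 13. Its measured neighbours on the chromosome did not share this ratio: Zbp1, a sensor of nucleic acids, passed as lower in FAF at -1.89 ± 0.07, and the closest Pmepa1 probe stood at 0.15 ± 0.10. These neighbours were named for their position.

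Fbp2, the isoform best known from muscle, did not pass. Its probe had 9499 and 10791 in FAF intestine against 6246 and 5703 in Conv intestine. The log2 ratio was 0.76 ± 0.16, or 1.70-fold, beside 11.4-fold for Fbp1. Pcx, the mitochondrial enzyme that feeds oxaloacetate into the pathway, differed least of the 8 genes. Its probe, at chr19:4621637-4621696 on the plus strand, had 1425 and 1393 in FAF against 1301 and 1211 in Conv, with a log2 ratio of 0.17 ± 0.04, or 1.12-fold.

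**Figure D2:**
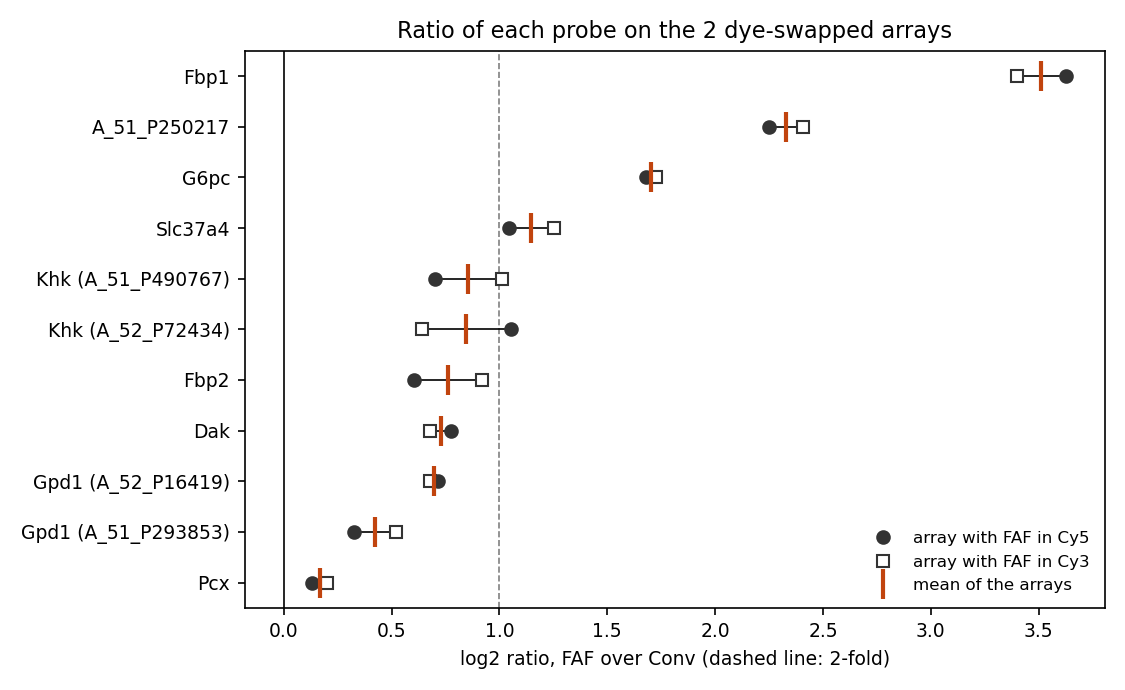
Log2 ratio of FAF over Conv for each of the 11 probes on the array with FAF in Cy5 (circles) and in Cy3 (squares), with the mean as an orange bar; the dashed line is 2-fold. All points lie above 0, and Fbp1, A_51_P250217, G6pc and Slc37a4 lie beyond 2-fold on both arrays. The genes and the unnamed probe were selected on this ratio.

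The fructose enzymes formed a narrower band, below 2-fold. Khk has 2 probes on the plus strand: A_51_P490767 is split over 940 bases at chr5:31232029-31232968, and A_52_P72434 lies further on at chr5:31233555-31233614.
Khk (A_51_P490767): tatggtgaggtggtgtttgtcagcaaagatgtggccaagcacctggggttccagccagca
Khk (A_52_P72434): tcctctctgcagatacctggagcaAATAAA
The stretches are shown because the probes read separate parts of the same messenger RNA, the further one with AATAAA in capitals. A_52_P72434 had intensities of 76984 and 71530 in FAF intestine against 37123 and 45916 in Conv intestine, and a log2 ratio of 0.85 ± 0.21. A_51_P490767 had 28112 and 33051 in FAF against 17283 and 16407 in Conv, and a log2 ratio of 0.86 ± 0.15. The mean ratios of the probes nearly coincide, while the arrays disagree in opposite directions, with 1.05 and 0.64 for A_52_P72434 and 0.70 and 1.01 for A_51_P490767. Khk, for which the brighter probe A_52_P72434 stands, would have passed on the array with FAF in Cy5 taken by itself.

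Dak, the triokinase that acts on glyceraldehyde, is read by a probe at chr19:10666826-10666885 on the minus strand. It had intensities of 9670 and 10247 in FAF intestine against 5642 and 6403 in Conv intestine. Both FAF values lay above both Conv values, and the log2 ratio was 0.73 ± 0.05, or 1.66-fold. Gpd1, which passes triose phosphate on to glycerol 3-phosphate, has 2 probes. The brighter, A_52_P16419 at chr15:99555334-99555393, had 61424 and 64770 in FAF against 37402 and 40467 in Conv, a log2 ratio of 0.70 ± 0.02. The dimmer, A_51_P293853 at chr15:99552970-99553657, had 928 and 943 in FAF against 740 and 657 in Conv, a log2 ratio of 0.42 ± 0.10. Both Gpd1 probes were higher in FAF on each array and neither reached 2-fold.

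The other genes of fructose entry were taken from a list of 12 that holds transporters, polyol enzymes and sugar-responsive genes, all measured. Of these, 3 passed as higher in FAF and 0 passed as lower. A ratio above 0 was found for 8 of 12, beside 49.8% of all genes measured, and the median was 0.18. Those that passed were Slc2a5, Slc2a2 and Sord. Slc2a5, the fructose transporter of the brush border, had intensities of 26156 and 25088 in FAF intestine against 11388 and 11323 in Conv intestine, a log2 ratio of 1.17 ± 0.03. Slc2a2, the transporter through which glucose and fructose leave the enterocyte, stood at 1.29 ± 0.09 on its brighter probe. Sord, which makes fructose from sorbitol, stood at 1.41 ± 0.10. Along the route of fructose the log2 ratios were thus 1.17 for Slc2a5, 0.85 for Khk and 0.73 for Dak, all higher in FAF on both arrays. Mlxipl, which codes for the sugar-sensing factor ChREBP, stood at 0.58 ± 0.01, and Txnip, a target of ChREBP, at -0.00 ± 0.04, both named after their values were seen.

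The isoenzymes and relatives of the listed genes lay on either side of 0. Of 10 such genes 9 were measured, and 0 passed in either direction, with 4 above 0 and a median of -0.00. Pck2, the mitochondrial carboxykinase, had intensities of 1318 and 1274 in FAF intestine against 1982 and 2064 in Conv intestine, a log2 ratio of -0.64 ± 0.05, which lies on the other side of 0 from A_51_P250217. G6pc3, the phosphatase subunit found in most tissues, stood at -0.28 ± 0.11 beside 1.70 for G6pc, and G6pc2, the subunit of pancreatic islets, did not reach the level at which a probe counts as measured. Of the carriers related to Slc37a4, Slc37a1 stood at -0.00 ± 0.04 and Slc37a2 at 0.18 ± 0.03. Gpd2, the mitochondrial partner of Gpd1 in the glycerol phosphate shuttle, was at 0.77 ± 0.12, close to the 0.70 of Gpd1, while Gpd1l was at -0.18 ± 0.14. The subunits of propionyl-CoA carboxylase, a biotin enzyme related to Pcx, had -0.39 ± 0.08 for Pcca and 0.16 ± 0.01 for Pccb. The carbohydrate kinase Fggy stood at 0.08 ± 0.03.

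**Figure D3:**
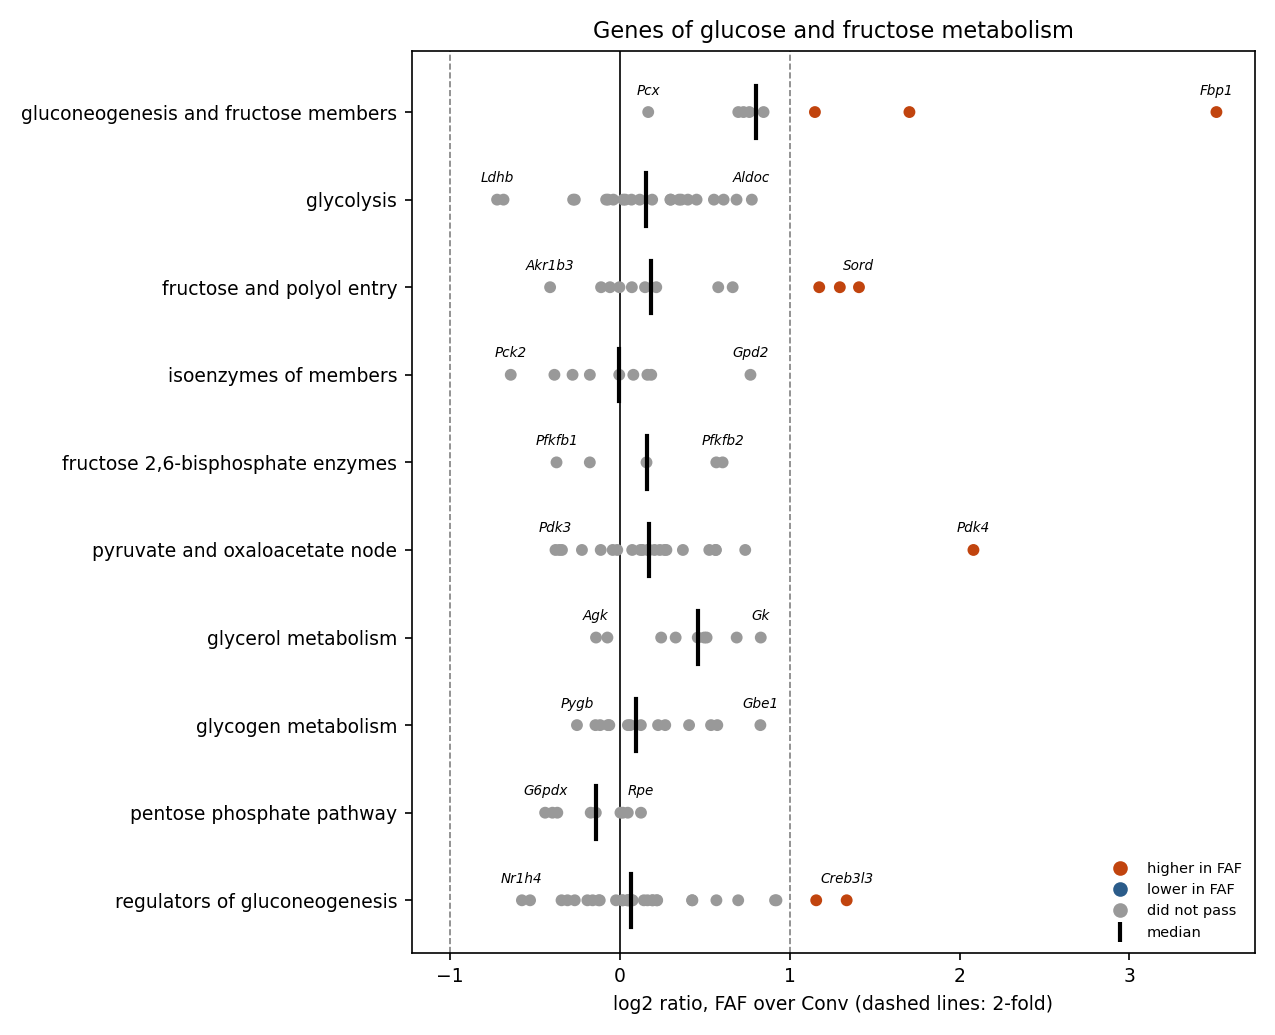
Mean log2 ratio of FAF over Conv for each measured gene (points) of the described genes and of 9 other lists of glucose and fructose metabolism; orange points passed as higher, grey points did not pass, black bars are medians and dashed lines mark 2-fold. No gene of these lists passed as lower, and the genes beyond 2-fold fall in 3 of the 9 other lists.

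Glycolysis, which shares its reversible steps with gluconeogenesis, had 22 listed genes, all measured, of which 0 passed in either direction. Of these 15 were above 0, and the median was 0.15. The 2 of largest absolute ratio were Aldoc, an aldolase, at 0.78 ± 0.06, with 0.09 ± 0.02 on its other probe, and Ldhb, a lactate dehydrogenase subunit, at -0.72 ± 0.01. The glycolytic enzymes that oppose the listed genes are named here for their reactions, after their values were seen. The phosphofructokinases, which oppose Fbp1, had Pfkl at 0.36 ± 0.21, Pfkm at 0.12 ± 0.03 and Pfkp at 0.02 ± 0.08. Of the hexokinases, which oppose G6pc, Hkdc1 stood at 0.61 ± 0.17 and Hk3 at 0.30 ± 0.01, above 0, and Hk1 at -0.28 ± 0.03 and Hk2 at -0.69 ± 0.15, below it. The pyruvate kinases, which oppose the steps of Pcx and Pck1, had 0.30 ± 0.03 for Pklr and 0.35 ± 0.05 for Pkm. None of these passed.

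Around pyruvate and oxaloacetate, the entry point of Pcx, 22 of 23 genes were measured, 1 of them passed, as higher in FAF, and the median was 0.17. The gene that passed was Pdk4, a kinase that switches off pyruvate dehydrogenase and so spares pyruvate from oxidation. Pdk4 had intensities of 1563 and 1422 in FAF intestine against 371 and 335 in Conv intestine, a log2 ratio of 2.08 ± 0.01, or 4.23-fold. Among genes of glycerol handling, which adjoin Gpd1, 9 of 11 were measured, 0 passed, 7 were above 0, and the median was 0.46. The 2 of largest ratio were the glycerol kinase Gk at 0.83 ± 0.02 and the glycerol channel Aqp7 at 0.69 ± 0.07. Of 14 measured glycogen genes 0 passed, and of 9 measured pentose phosphate genes 0 passed, with medians of 0.09 and -0.14. The largest absolute ratios among glycogen genes were those of the branching enzyme Gbe1 at 0.83 ± 0.12 and the phosphoglucomutase Pgm2 at 0.57 ± 0.01. The array files give Pgm2 the name Pgm1, and use the name Pgm2 for the gene now called Pgm1, which stood at 0.54 ± 0.07. Among pentose phosphate genes they were those of G6pdx, which opens the pathway from glucose 6-phosphate, at -0.44 ± 0.09 and of the lactonase Pgls at -0.40 ± 0.03. The 5 enzymes that make or break fructose 2,6-bisphosphate, the inhibitor of Fbp1, had 0 that passed and a median of 0.16. The 2 of largest absolute ratio were Pfkfb2 at 0.60 ± 0.06 and Pfkfb3 at 0.57 ± 0.01. Their dimmer probes stood lower, at 0.48, 0.09 and 0.03 for Pfkfb2 and at 0.09 and 0.00 for Pfkfb3.

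Of 36 regulators of gluconeogenesis 33 were measured, 2 of them passed, both as higher in FAF, and the median was 0.07. Creb3l3, a membrane-bound transcription factor known from fasting liver, had intensities of 28904 and 29068 in FAF intestine against 12129 and 10881 in Conv intestine, a log2 ratio of 1.34 ± 0.08. Ppara, the fatty acid receptor that switches on fasting genes, had 2328 and 2039 in FAF against 973 and 982 in Conv, a log2 ratio of 1.16 ± 0.10. Among regulators known from liver that did not pass, named after their values were seen, the next highest were Trib3, a pseudokinase, at 0.92 ± 0.09, the factor Klf15 at 0.91 ± 0.16 and the insulin receptor Insr at 0.70 ± 0.14. The dimmer probe of each stood at 0.65 ± 0.16 for Trib3, 0.08 ± 0.04 for Klf15 and 0.06 ± 0.05 for Insr. Of the 33 measured, 23 lay above 0 and 10 below it. The lowest were Nr1h4 at -0.58 ± 0.13 and Nr4a1 at -0.53 ± 0.14. Other regulators named here lay nearer to 0, with the coactivator Ppargc1a at 0.43 ± 0.04 and its relative Ppargc1b at -0.34 ± 0.03. The forkhead factor Foxo1 stood at 0.14 ± 0.07, the CREB coactivator Crtc2 at 0.07 ± 0.00 and the nuclear receptor Hnf4a at -0.12 ± 0.04. Activity of such factors is often set by phosphorylation and location, which arrays do not measure.

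The promoters of the genes that passed were read for motifs of these regulators, in the 250 bases before each RefSeq start (assembly GRCm38.p6, sequences from RefSeq). Windows were present for 8 of the 9 genes, 11 in all, since some genes have several starts. The windows of Fbp1, G6pc and the start of Slc37a4 with a TATA box follow, in the direction of transcription, with every match in capitals.
Fbp1 (chr13:62888283-62888532, minus strand): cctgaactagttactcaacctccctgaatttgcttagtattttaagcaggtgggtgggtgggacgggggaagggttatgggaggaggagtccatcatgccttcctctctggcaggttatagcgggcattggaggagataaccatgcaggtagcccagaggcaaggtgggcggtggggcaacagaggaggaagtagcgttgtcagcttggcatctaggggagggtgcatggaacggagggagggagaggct
G6pc (chr11:101367466-101367715, plus strand): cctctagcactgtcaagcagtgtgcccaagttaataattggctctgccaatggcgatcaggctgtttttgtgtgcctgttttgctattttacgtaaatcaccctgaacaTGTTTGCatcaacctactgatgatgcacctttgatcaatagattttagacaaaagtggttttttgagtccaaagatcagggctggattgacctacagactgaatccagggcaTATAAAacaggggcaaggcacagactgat
Slc37a4 (chr9:44398104-44398353, plus strand): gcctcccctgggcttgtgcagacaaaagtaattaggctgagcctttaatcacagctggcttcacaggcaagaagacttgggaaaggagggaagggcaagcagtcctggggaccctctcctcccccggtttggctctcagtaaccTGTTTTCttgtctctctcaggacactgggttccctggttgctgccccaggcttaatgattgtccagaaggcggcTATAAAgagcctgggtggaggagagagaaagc
In G6pc the forkhead (FOXO) motif TGTTTNC begins 141 bases before the start and the TATA box TATAAA 29 bases before it. In this start of Slc37a4, chosen because its window holds a TATA box, the same motifs begin 106 and 32 bases before. Every motif, the TATA box included, was sought on both strands. TGTTTNC was in 4 of the 11 windows, those of G6pc, Khk and 2 starts of Slc37a4, against 17.8% of the 32851 RefSeq windows. In Khk, which did not pass, it begins 229 bases before the start. TATAAA was in 2 of the 11 windows, those of G6pc and 1 start of Slc37a4, against 12.4% of all. The Fbp1 window holds none of the motifs sought.

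The cAMP response element TGACGTCA was in none of the 11 windows, against 1.55% of all. Its shorter core TGACG was in 5 of them, those of Fbp2, Khk, Pck1 and 2 starts of Slc37a4, against 17.8% of all. These 2 windows of Slc37a4 overlap and share a site of TGACG, 61 bases before the earlier start and 214 before the later, so it is counted in both. The E-box CACGTG, the core of the sites that ChREBP binds, was in 3 windows, those of Fbp2, Khk and Pcx, against 6.02% of all. In Khk the E-box begins 71 bases before the start and overlaps a match of that core. The HNF4A motif CAAAGTCCA, the direct repeat of AGGTCA with 1 base between, and the glucocorticoid receptor motif TGTTCT were in none of the 11 windows, against 0.384%, 0.0335% and 16.1% of all. These matches describe letters in short windows, and binding was not measured.

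The RNA comes from whole tissue, so a change in the number of cells of a type and a change of RNA per cell cannot be told apart. Markers are described by list, and single markers were named after their values were seen. Those of mature enterocytes, the cells that take up and convert sugars, moved with the described genes: 6 of 15 passed as higher and 0 as lower, 14 were above 0, and the median was 0.82. Their summed intensity was 1208460 and 1283430 in FAF intestine against 590877 and 722590 in Conv intestine. Markers of dividing epithelium moved the other way, with 5 of 10 lower, 0 higher and a median of -1.0, and a summed intensity of 26487 and 26021 in FAF against 42339 and 45305 in Conv. When each array's median enterocyte ratio was set to 0, a scaling chosen after seeing the data, Fbp1 stood at 2.70 ± 0.12 and A_51_P250217 at 1.51 ± 0.07, and these alone of the 9 still passed. On that scale G6pc stood at 0.89 ± 0.02, Slc37a4 at 0.33 ± 0.10 and Khk at 0.03 ± 0.21. Fbp2 stood at -0.05 ± 0.15, Dak at -0.09 ± 0.05, the brighter Gpd1 probe at -0.12 ± 0.02 and Pcx at -0.65 ± 0.03, so that 4 of the 8 genes changed sign.

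**Figure D4:**
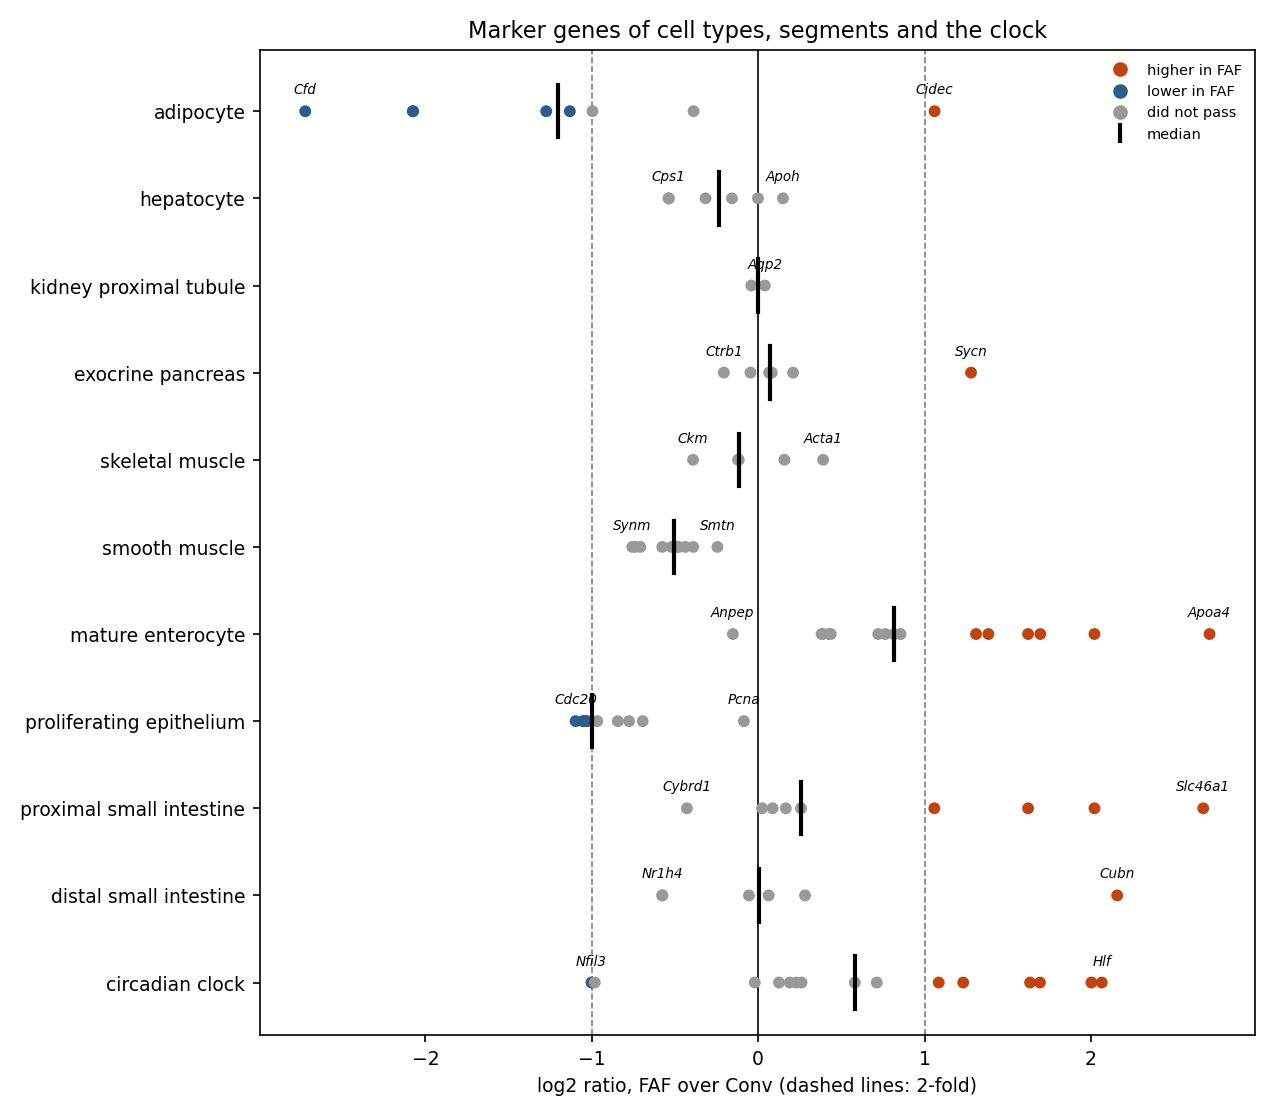
Mean log2 ratio of FAF over Conv for each measured marker gene (points) of 8 cell types, 2 segments of the small intestine and the circadian clock; orange passed as higher, blue as lower, grey did not pass, black bars are medians and dashed lines mark 2-fold. Enterocyte and clock markers lie mostly to the right of 0, and dividing epithelium, fat and smooth muscle markers mostly to the left.

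None of the markers of liver, kidney or skeletal muscle passed. Of 10 hepatocyte markers 6 were measured, 0 passed in either direction, and the median was -0.24. Fga, Fgb and Ttr did not rise clearly above background and were not measured, and Alb and Ahsg were well above background in Conv only. The summed intensity of hepatocyte markers was 5768 and 5658 in FAF intestine against 8166 and 8044 in Conv intestine. Most of that sum came from Cps1, with 5089 and 4970 in FAF against 7378 and 7231 in Conv. The sum therefore follows this gene and not the list as a whole. Alb had 77 and 76 in FAF against 83 and 88 in Conv, and Ahsg 71 and 78 against 90 and 96. Of the 6 measured, 5 lay below 0 and 1 above it. What part of the Cps1 signal comes from liver cells was not tested. Of 7 kidney markers 2 were measured and 0 passed, with Slc34a1 and Umod among those not well above background, and a summed intensity of 186 and 194 in FAF against 190 and 188 in Conv. Of 5 measured skeletal muscle markers 0 passed, with a median of -0.12 and a summed intensity of 1119 and 1135 in FAF against 1006 and 1025 in Conv. Smooth muscle markers lay below 0 for 10 of 10 without passing, with a median of -0.51 and a summed intensity of 88256 and 89691 in FAF against 135295 and 123820 in Conv. Of 6 measured pancreas markers 1 passed as higher, Sycn at 1.28 ± 0.01, with a median of 0.07 and a summed intensity of 1133 and 1100 in FAF against 805 and 887 in Conv. Fat cells also use Gpd1, Pcx and Aqp7. Their markers were lower for 5 of 8 and higher for 1, Cidec, with a median of -1.20. Cfd stood at -2.72 ± 0.02, Adipoq at -2.08 ± 0.00 and Car3 at -2.07 ± 0.00. The summed intensity, 20428 and 22225 in FAF against 23423 and 22691 in Conv, was carried by Cidec, with 11440 and 12364 in FAF against 5909 and 5504 in Conv, and by Fabp4, with 7489 and 8288 in FAF against 10644 and 9987 in Conv.

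The segment and the hour of collection bear on these genes, since their levels are known to vary along the intestine and over the day. Of 9 markers of the proximal small intestine 4 passed as higher and 0 as lower, with a median of 0.26, and a summed intensity of 311476 and 363522 in FAF against 90846 and 126880 in Conv. Of these markers 2, Fabp1 and Lct, are enterocyte markers of the list above as well and make up most of that sum. Among the other 7, 2 passed as higher, Slc46a1 and Adh6a, with a median of 0.17 and a summed intensity of 69061 and 71377 in FAF against 30237 and 29848 in Conv. Of 6 measured distal markers 1 passed as higher, Cubn, and the median was 0.00, while the ileal genes Fabp6 and Fgf15 did not rise clearly above background and were not measured. Distal markers summed to 92391 and 88517 in FAF against 66353 and 73780 in Conv. Of 15 measured clock genes 6 passed as higher and 1 as lower, with Hlf at 2.07 ± 0.06, Per2 at 1.69 ± 0.16 and Nfil3 at -1.0 ± 0.15. Clock genes summed to 54998 and 59766 in FAF against 17197 and 18838 in Conv. The part of cell make-up, segment and hour in the ratios of the described genes was not tested, and with 1 RNA sample per diet they cannot be told apart from diet.

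The genes of most similar ratio were found by distance over the 2 arrays among all measured genes. For Fbp1 they were Akr1c14, a hydroxysteroid dehydrogenase, at a distance of 0.391 in log2, Slc6a3, the dopamine transporter, at 0.414, and Rdh16f2, of the retinol dehydrogenase family, at 1.07. For A_51_P250217, which is much nearer to other genes, they were Igkv2-112, an immunoglobulin light chain segment, at 0.0573, the phosphatase Ppm1j at 0.0845 and the cytochrome P450 Cyp2j6 at 0.104. With only 2 arrays of the same RNA, such nearness says only that the ratios are of like size.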

How the data were processed

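The genes, lists and rules were chosen with earlier results of these data known. The scanner files deposited by the authors hold the linear intensity of every spot in either dye, its local background and quality flags, from Agilent Feature Extraction 11.5.1.1, and a log10 ratio of Cy5 over Cy3 computed by that software, per the file headers. The deposited value table equals that log10 ratio to within 4.99e-08, with no turning for the dye swap. It lists 45220 features, and the scanner files used here 45018.

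Mean intensities were corrected for local median background by normexp (offset 50) and normalised by loess within each array with limma 3.58.1 in R 4.3.3, with control spots at weight 0. Log2 ratios were turned to FAF over Conv by the labelled dyes and averaged. Intensities given per diet were also scaled between arrays (Aquantile). Control and outlier spots were left out. A probe was measured when well above background in at least 1 diet on both arrays (25440 of 41174 probes). The brightest probe stood for a gene, giving 17162 genes. Names came from RefSeq by accession for 27668 probes, and 13506 kept the file's name.

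The arrays correlated with Pearson r = 0.90 and Spearman rho = 0.81 across genes, which are not independent replicates, and the median distance of an array from the mean was 0.06 in log2. Between 60.9% and 64.3% of features were well above background per channel and array. The number of arrays limits the precision. Simulated data served to test the steps. The text names every listed gene's probes and, from each metabolic list (not the marker lists), up to 6 genes per direction that passed, or else the 2 of largest absolute ratio, every isoenzyme, and the 3 genes of nearest ratio to Fbp1 and to A_51_P250217. Alternatives were another background correction, another offset, median centring, the software's ratio, other filters, the mean over probes, other fold limits, each array alone and a zero point set on enterocyte markers. Some genes of the lists are not reported here and were left out of them.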

Additional observations from a re-analysis of the deposited data

How the results depend on the processing

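Under the main settings 4 of the 9 described items passed as higher, beside 263 genes higher and 151 lower. With the software's log ratio, or the deposited table, 4 items passed, beside 487 genes higher and 350 lower. With median centring in place of loess, 3 items passed, without Slc37a4, beside 183 genes higher and 82 lower. At a limit of 1.5-fold 8 items passed, all but Pcx, beside 775 genes higher and 616 lower. At 4-fold 2 items passed, Fbp1 and A_51_P250217, beside 31 genes higher and 18 lower. With enterocyte markers set to 0, chosen after seeing the data, 2 items passed. Leaving out an array gave 4 to 5 items, 268 to 286 genes higher and 144 to 172 lower, and Khk was the item added without the array with FAF in Cy3. No item passed as lower under any of these settings. Under the software's ratio, no background correction, an offset of 10 and median centring, the log2 ratio of Fbp1 lay between 3.51 and 3.53, and those of all 11 probes, chosen for being high, stayed above 0. No paired analysis was possible because each diet has 1 RNA sample. All 11 probes were well above background, and the part of signal strength in their ratios was not tested. The cause of these moves was not tested, and spread between mice was not measured.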
